A study of Mus musculus with 9 samples.

Results

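Slc44a2 and Slc6a21 are genes of membrane transporters whose testis RNA was measured in mice that lack the cleaved domain of protamine 2. Both were chosen by name from the table of loci because their counts in Prm2-/Δc testes were low against WT, so that comparison is given here as a description, with no p-value. In the table they are the StringTie loci MSTRG.23019 (Slc44a2) and MSTRG.20040 (Slc6a21), and no other row carries either name. They are 2 of the 50485 rows of the table and 2 of its 157 rows that have a gene name of the solute carrier (Slc) kind. The study holds 9 libraries of testis RNA, each from 1 mouse of 10 to 13 weeks on a C57BL/6 background, with 3 mice per genotype. WT mice carry 2 unchanged copies of Prm2. Prm2+/Δc mice (labelled het) carry 1 copy from which the coding region of the cleaved domain (cP2) was removed in frame with CRISPR/Cas9, and 1 unchanged copy. Prm2-/Δc mice (labelled hom) carry the Δc copy and a Prm2 null copy with a deletion, and came from crosses of Prm2+/Δc females with Prm2+/- males, so the name hom does not stand for 2 Δc copies. The Δc founders were made in oocytes of B6D2F1 mice, a cross of C57Bl/6 and DBA2, and their line was crossed back to C57Bl/6J over a minimum of 3 generations. The tissue is the whole testis without its outer capsule, so fewer cells of a type and less RNA per cell cannot be told apart in any value below.

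Solute carriers move small molecules across cell membranes, and they are grouped into families by sequence. The SLC44 family holds the choline transporter-like proteins. Choline is a precursor of phosphatidylcholine, a main lipid of membranes, and Slc44a2 encodes choline transporter-like protein 2 of the plasma membrane and mitochondria. The SLC6 family holds the sodium- and chloride-dependent transporters of neurotransmitters, amino acids, creatine and taurine, such as those for serotonin (Slc6a4) and creatine (Slc6a8). Slc6a21 is a member of that family for which no substrate is given here. During spermiogenesis round spermatids elongate, transcription ceases, and histones are replaced first by transition proteins and then by protamines.

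Slc44a2 (ENSMUSG00000057193) lies on the plus strand of chromosome 9 from 21320698 to 21355028 in GRCm38. The annotation gives it 10 transcripts, of which 4 are protein coding. Its long transcripts begin at 2 places, one at the gene start and one at 21337828, inside an intron of the longer forms. Of the 10 transcripts, 3 end within 10 bases of the gene end, and these include the long forms of both starts, so reads from the 3′ end do not tell the starts apart. Slc6a21 (ENSMUSG00000070568) lies on the plus strand of chromosome 7 from 45277513 to 45288998. It has 6 transcripts, 3 of them protein coding, and 3 of the 6 end within 10 bases of the gene end. Its closest annotated neighbour in the family, Slc6a16, ends 4145 bases before it on the same strand. Trpm4, which encodes a calcium-activated cation channel, lies on the other strand with its 3′ end 13633 bases after Slc6a21. The long noncoding gene Gm39302 lies on the other strand head to head with Slc44a2, with 80 bases between their starts, so the upstream window printed below overlaps it.

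**Figure D1:**
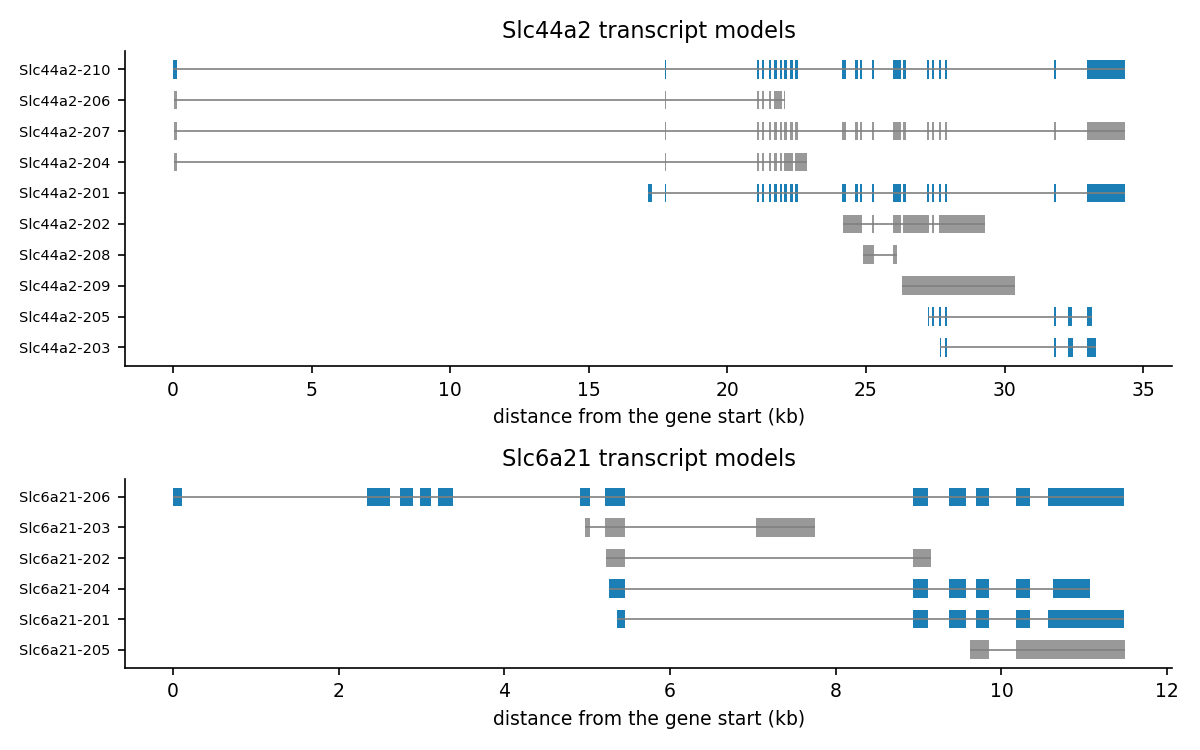
Transcript models of Slc44a2 (10 transcripts) and Slc6a21 (6 transcripts) from the GRCm38 annotation, with boxes for exons, blue for protein-coding and grey for other transcripts, over the distance from the gene start in kb. The long forms of each gene have different starts but a shared 3′ end, where the libraries take their reads.

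The stretches before the starts that RefSeq gives (GRCm38.p6) are shown because the counts cannot say which start was used. Capitals mark the matches to motifs that were looked for. The capitals in the upstream Slc44a2 window are the GC box GGGCGG, which binds Sp1. In the inner Slc44a2 window they are the box CCAAT, which binds NF-Y. In the Slc6a21 window they are the core of the cAMP response element, read on the other strand as CGTCA, an element bound by CREM, which activates genes of spermatids. That match lies inside coding exon of the longest Slc6a21 transcript. The 3 windows lie at chr9:21320469-21320697, chr9:21337578-21337827 and chr7:45282623-45282872, all on the plus strand.
Slc44a2 upstream start: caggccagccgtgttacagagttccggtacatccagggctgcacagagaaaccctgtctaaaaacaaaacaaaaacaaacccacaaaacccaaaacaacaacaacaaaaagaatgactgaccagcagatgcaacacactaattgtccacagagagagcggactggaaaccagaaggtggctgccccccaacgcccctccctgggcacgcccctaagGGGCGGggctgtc
Slc44a2 inner start: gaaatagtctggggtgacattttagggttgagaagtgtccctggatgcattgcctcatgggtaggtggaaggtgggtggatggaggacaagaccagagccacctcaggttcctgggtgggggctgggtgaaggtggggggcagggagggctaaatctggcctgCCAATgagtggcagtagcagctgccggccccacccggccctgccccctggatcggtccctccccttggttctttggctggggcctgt
Slc6a21 inner start: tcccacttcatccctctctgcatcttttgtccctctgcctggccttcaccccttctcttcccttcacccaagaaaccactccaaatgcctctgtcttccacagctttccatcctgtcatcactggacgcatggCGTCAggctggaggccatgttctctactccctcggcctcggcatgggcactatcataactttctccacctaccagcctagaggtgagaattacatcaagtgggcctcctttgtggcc

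Both strands of the 250 bases before each start were searched for these motifs. The core was written TGACG, and the whole cAMP response element, which contains that core, was searched for as well under the letters TGACGTCA. The upstream Slc44a2 window held 1 GC box, a motif present in 32.7% of 32817 RefSeq windows of this length. The inner Slc44a2 window held 1 box of the NF-Y kind, present in 33.8% of the windows. The Slc6a21 window held 1 core element, present in 17.7%. None of the 3 windows held the TATA box, searched as TATAAA and present in 12.4% of windows. The whole cAMP response element was likewise in none of the 3, against 1.55% of all windows. A match is a description of the letters and not a bound site. The printed Slc44a2 upstream stretch leaves out the last 21 bases of its window, which an annotated transcript already covers. In the Slc6a21 window, 147 of the 250 bases are coding exon of the longest transcript, so this start lies inside that transcript. The marked core element is within those 147 bases. The stretch before the start of the longest transcript is not among the 3 windows shown. G and C made up 55.6% and 62% of the Slc44a2 windows and 54.4% of the Slc6a21 window, against a median of 52.4% over all windows.

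The libraries held between 9070746 and 20320362 estimated counts. Levels below are normalized counts, that is, estimated counts divided by a size factor of each library. The locus read as Prm2 by its order in the protamine cluster lay between 92847 and 128477 normalized counts in all 9 libraries, and since the Δc copy is still transcribed this does not check the genotypes. Very few markers of testis cell types had a row with a name. None of the 8 germ cell, 4 Leydig cell or 2 peritubular myoid cell markers had one. Of the Sertoli cell markers 1 of 4 had one, Amh, which was at 0 counts in all libraries, so the labelled tissue could not be checked by named rows of these markers. The 4 loci read by their order as the protamine cluster, which includes the spermatid gene Prm2, had at least 9369 counts in each library. Of the red blood cell markers 1 of 2 had a named row, Hbb-bs, whose normalized count was 483 ± 98.6 for WT, 1069 ± 320 for Prm2+/Δc and 797 ± 301 for Prm2-/Δc (SD, n = 3 each). Of the 3 epididymis markers, Crisp1 and Lcn5 were at 0 in all libraries, and Defb20 had at most 5 counts. The part of blood in the values of Slc44a2 and Slc6a21 was not tested.

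Slc44a2 was high in all WT testes and in 1 of the 3 Prm2+/Δc testes, and low in the other 2 Prm2+/Δc and in all Prm2-/Δc testes. The WT libraries had 317, 300.0 and 354 normalized counts in replicates 1 to 3. The Prm2+/Δc libraries had 276, 46.3 and 53.6. The Prm2-/Δc libraries had 86.9, 54.2 and 43.4. All Prm2-/Δc and all Prm2+/Δc values lay below the lowest WT value, whereas the ranges of the mutant genotypes overlapped. The mean was 324 ± 27.8 for WT, 125 ± 131 for Prm2+/Δc and 61.5 ± 22.6 for Prm2-/Δc mice (SD, n = 3 each). In the order of the means WT was highest, and the neighbours Prm2+/Δc and Prm2-/Δc did not differ beyond their spread.

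Slc6a21 was high in 2 of 3 WT testes and in all Prm2+/Δc testes, and low in the remaining WT testis and in all Prm2-/Δc testes. The WT libraries had 1932, 2038 and 40.2 normalized counts. The Prm2+/Δc libraries had 1794, 1639 and 1699. The Prm2-/Δc libraries had 58.9, 50.1 and 15.2. WT replicate 3 therefore lay inside the Prm2-/Δc range, and no library lay between 58.9 and 1639 normalized counts. The mean was 1337 ± 1124 for WT, 1711 ± 78.1 for Prm2+/Δc and 41.4 ± 23.1 for Prm2-/Δc mice (SD, n = 3 each). The WT mean stands for no single WT mouse, and WT and Prm2+/Δc did not differ beyond their spread.

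**Figure D2:**
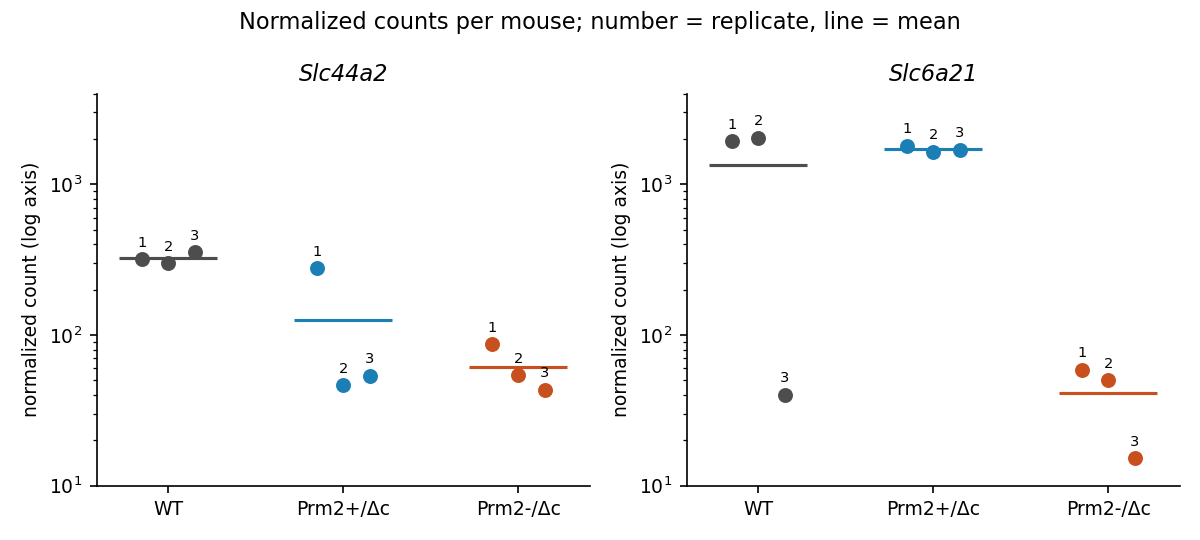
Normalized counts of Slc44a2 and Slc6a21 in each of the 9 testis libraries on a log axis, with the replicate number at each point and a line at the group mean. Slc44a2 of Prm2+/Δc replicate 1 (276) sits near the WT points, and Slc6a21 of WT replicate 3 (40.2) sits among the Prm2-/Δc points.

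These gaps inside a genotype were large against counting error, as far as estimated counts can show it. Slc6a21 of WT replicate 3 rested on 49 estimated counts, in a library of 16799651 counts. Its exact 95% Poisson interval was 36.3 to 64.8. The intervals here cover counting error only and treat each estimated count as a tally of reads. The estimates are scaled from coverage, so the intervals are approximate. WT replicates 1 and 2 had 1291 and 1691 counts in smaller libraries. Their mean normalized count was 49.4 times that of replicate 3 and 47.9 times the Prm2-/Δc mean. For Slc44a2, Prm2+/Δc replicate 1 had 244 counts (interval 214 to 277), and replicates 2 and 3 had 54 (40.6 to 70.5) and 76 (59.9 to 95.1). Replicate 1 was 5.52 times the mean of the other 2.

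The spread of each gene inside a genotype was set beside that of the 9909 loci with a mean of at least 100 normalized counts, a view chosen after the values had been seen. After 1 was added to each value, the highest WT level of Slc6a21 was 49.5 times the lowest, against a median of 1.32 over the loci, and 1.11% of the loci had a ratio as large. In Prm2+/Δc the ratio of Slc6a21 was 1.09, and 84.5% of the loci varied at least as much. For Slc44a2 the order was the other way, with a ratio of 1.18 in WT (74.6% of loci at least as large) and 5.85 in Prm2+/Δc (4.01% of loci). In Prm2-/Δc the ratios were 1.98 for Slc44a2 and 3.70 for Slc6a21. Slc6a21 was 1 of 149 loci (1.5%) that in WT replicate 3 lay at least 5-fold below both other WT libraries, and Slc44a2 was 1 of 57 (0.575%) that in Prm2+/Δc replicate 1 lay at least 5-fold above both other Prm2+/Δc libraries. Over the 9 libraries, between 61 and 149 loci were that far below and between 26 and 175 that far above both mates of the genotype.

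In Prm2-/Δc against WT, the comparison by which both genes were chosen, the WT mean was 5.26 times the Prm2-/Δc mean for Slc44a2 and 32.3 times for Slc6a21. The fitted log2 fold changes were -2.39 (SE 0.299) for Slc44a2 and -5.00 (SE 1.39) for Slc6a21. Without WT replicate 3 the Slc6a21 value was -5.58 (SE 0.575). Neither gene was among the loci called by edgeR with the thresholds of an adjusted p below 0.05 and a change above 1 in log2, of which there was 1 in 17637 tested (0.00567%). The values of Slc44a2 did not overlap between these genotypes and those of Slc6a21 did. Lower values without overlap were found for 762 loci (4.32%). Nothing is read from these shares, since the comparison chose the genes.

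Prm2+/Δc against WT asks what 1 Δc copy beside an unchanged copy does. It shares its WT libraries with the comparison that chose the genes, in which both were higher in WT. Its p-values therefore lean towards lower values in Prm2+/Δc, and a pass in that direction is no independent support. Slc44a2 had a mean of 125 against 324 normalized counts (38.7%), with a log2 fold change of -1.38 (SE 0.703) that did not pass edgeR's quasi-likelihood test (adjusted p = 0.999). All 3 Prm2+/Δc values lay below all 3 WT values, as did those of 822 of 17815 loci (4.61%). The difference of means was -199 normalized counts, with p = 0.1 in an exact two-sided permutation test, the smallest that 3 against 3 libraries allow, and 0.2 after Benjamini-Hochberg adjustment over the 4 tests made. The value rested on which library was kept. Without Prm2+/Δc replicate 1 the log2 fold change was -2.70 (SE 0.198, adjusted p = 0.0371 in edgeR). With each of the other 5 libraries left out in turn it was not called.

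Slc6a21 showed no difference that this design could detect between Prm2+/Δc and WT. The means were 1711 and 1337 normalized counts, the groups overlapped, and the log2 fold change was 0.35 (SE 1.09, edgeR adjusted p = 0.999). The exact two-sided permutation test of the difference of 374 normalized counts gave p = 1.0. The direction turned without WT replicate 3, where the log2 fold change was -0.22 (SE 0.0816, edgeR adjusted p = 0.823). Neither gene was called in this comparison, in which edgeR called 13 of 17815 loci (0.073%).

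Prm2-/Δc against Prm2+/Δc compares the mutants that do and do not keep an unchanged Prm2 copy. It shares its Prm2-/Δc libraries with the choosing comparison, in which both genes were low in those libraries. The p-values of this comparison, with either tool, therefore lean towards lower values in Prm2-/Δc and are no independent support. Slc6a21 had 41.4 against 1711 normalized counts, or 2.42% of the Prm2+/Δc mean, and no values overlapped, which held in this direction for 971 of 17986 loci (5.4%). The log2 fold change was -5.37 (SE 0.50). Its adjusted p in edgeR was 0.0711, so Slc6a21 was not among the 2 loci called (0.0111%), both of which were higher in Prm2-/Δc. The exact two-sided permutation test of the difference of -1669 normalized counts gave p = 0.1, the smallest it can give, and 0.2 after adjustment over the 4 tests.

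The call for Slc6a21 in that comparison changed with the method and with the libraries kept. Its log2 fold change stayed between -5.69 and -4.98. DESeq2 gave -5.36 (SE 0.429, adjusted p = 5.51e-32) and called 108 loci, edgeR without the filter on low counts gave -5.37 (adjusted p = 0.0477), and edgeR without Prm2-/Δc replicate 3 gave -4.98 (adjusted p = 0.00111). One fit of all 9 libraries in edgeR gave -5.37 with an adjusted p of 0.985, a fit in which the WT libraries also enter the estimate of the spread.

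Slc44a2 had 61.5 normalized counts in Prm2-/Δc against 125 in Prm2+/Δc, and the groups overlapped. The log2 fold change of -1.02 (SE 0.75) did not pass edgeR's test (adjusted p = 0.999). The exact two-sided permutation test gave p = 0.7, and 0.933 after adjustment. Without Prm2+/Δc replicate 1 the direction turned and the log2 fold change was 0.29 (SE 0.378), which edgeR did not call. The low Slc44a2 levels of the remaining Prm2+/Δc mice, 46.3 and 53.6, lay inside the Prm2-/Δc range of 43.4 to 86.9.

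**Figure D3:**
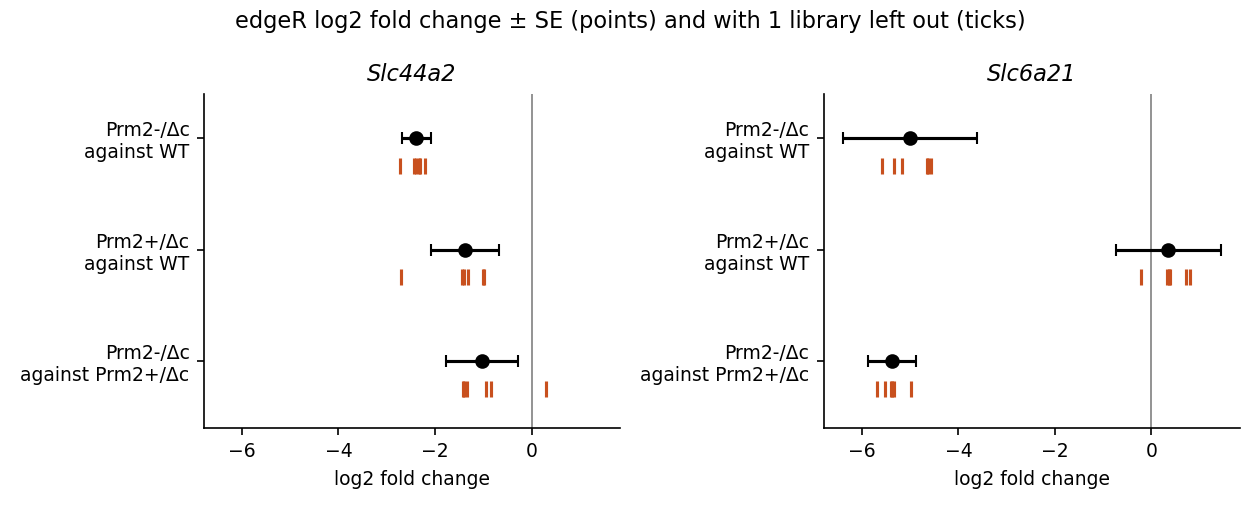
edgeR log2 fold changes of Slc44a2 and Slc6a21 in the 3 comparisons, with bars for 1 SE and ticks below for the value with 1 library left out in turn. The ticks that cross 0 are Slc44a2 in Prm2-/Δc against Prm2+/Δc without Prm2+/Δc replicate 1 (0.29) and Slc6a21 in Prm2+/Δc against WT without WT replicate 3 (-0.22).

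The genes did not follow each other over the libraries. Pearson's r of log2(normalized count + 1) between Slc44a2 and Slc6a21 was 0.31 over the 9 libraries, which share their genotypes. The libraries that set them apart were WT replicate 3, low in Slc6a21 and the highest of all in Slc44a2, and Prm2+/Δc replicates 2 and 3, high in Slc6a21 and low in Slc44a2.

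The named genes with the most similar pattern to Slc44a2 over the 9 libraries were Yap1 (r = 0.93), B930059L03Rik (0.90), Gm28874 (0.90), Ahdc1 (0.87) and Lipo3 (0.86), from 1640 named among 17591 loci with a mean of at least 10 normalized counts. Yap1, a transcriptional coactivator of the Hippo pathway, lies 13316101 bases before Slc44a2 on chromosome 9. Its normalized counts in the WT mice were 456, 553 and 303, those of Prm2+/Δc mice 386, 168 and 145 and those of Prm2-/Δc mice 152, 132 and 137. As with Slc44a2, Prm2+/Δc replicate 1 lay near the WT values and the other mutants lay below them. Yap1 was chosen by r and was itself listed by the study as low in Prm2-/Δc. This likeness therefore follows from that choice and in part from how its locus came to have a name. In all, 5 loci had r of at least 0.9 with Slc44a2 and 4 had r of -0.9 or lower. The most opposed was MSTRG.6447, an unnamed StringTie locus on chromosome 13 by its place among named loci, with 0 counts in all WT libraries and Prm2+/Δc replicate 1. Treated as a tally of reads, a count of 0 allows up to 3 counts per library. It had 173 and 199 normalized counts in Prm2+/Δc replicates 2 and 3, and 1.93, 198 and 160 in Prm2-/Δc replicates 1 to 3.

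The named genes most like Slc6a21 were Prr13 (r = 0.96), 4930440C22Rik (0.94), Hspbap1 (0.88), Rttn (0.88) and Hspa1b (0.87). Prr13 on chromosome 15 had 144, 123 and 17.2 normalized counts over the WT mice, 99.5, 136 and 104 in Prm2+/Δc, and 5.80, 9.86 and 7.60 in Prm2-/Δc. WT replicate 3 was the low WT library here too, which follows from the choice by r and adds no support. The locus 4930440C22Rik on chromosome 1 had 55.4, 81.9 and 5.74 normalized counts over the WT mice, between 41.9 and 55.7 in Prm2+/Δc, and 0 in all Prm2-/Δc libraries. The study had listed Prr13 and 4930440C22Rik as low in Prm2-/Δc, so their likeness also follows in part from how their loci came to have names. Hspbap1, which encodes a binding partner of the small heat shock protein Hspb1, Rttn, a gene of centriole assembly, and Hspa1b, an inducible heat shock protein, were not on its lists and had ranges of 7.96-fold, 3.11-fold and 2.09-fold over the 9 libraries. In all, 54 loci had r of at least 0.9 with Slc6a21 and 27 had r of -0.9 or lower.

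The reverse pattern was held by MSTRG.677, an unnamed locus on chromosome 1. It had 7.48, 14.5 and 815 normalized counts over the WT mice, between 3.52 and 10.2 in Prm2+/Δc, and 1121, 1024 and 1658 in Prm2-/Δc, with r = -0.98. It was 1 of the 2 loci that edgeR called in Prm2-/Δc against Prm2+/Δc. MSTRG.15303 on chromosome 4 had 98.4 normalized counts in WT replicate 3 and between 94.7 and 131 in Prm2-/Δc, against 9.05 to 14.1 in the other 5 libraries. These opposed loci were looked up after the values had been seen. Their split of the libraries follows from that choice and adds no support. Whether WT replicate 3 carries the genotype of its label, or differs in strain background at these loci, was not tested, and the WT mean and the folds of Slc6a21 rest on it. For Slc44a2 the same library was at the level of the other WT mice.

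**Figure D4:**
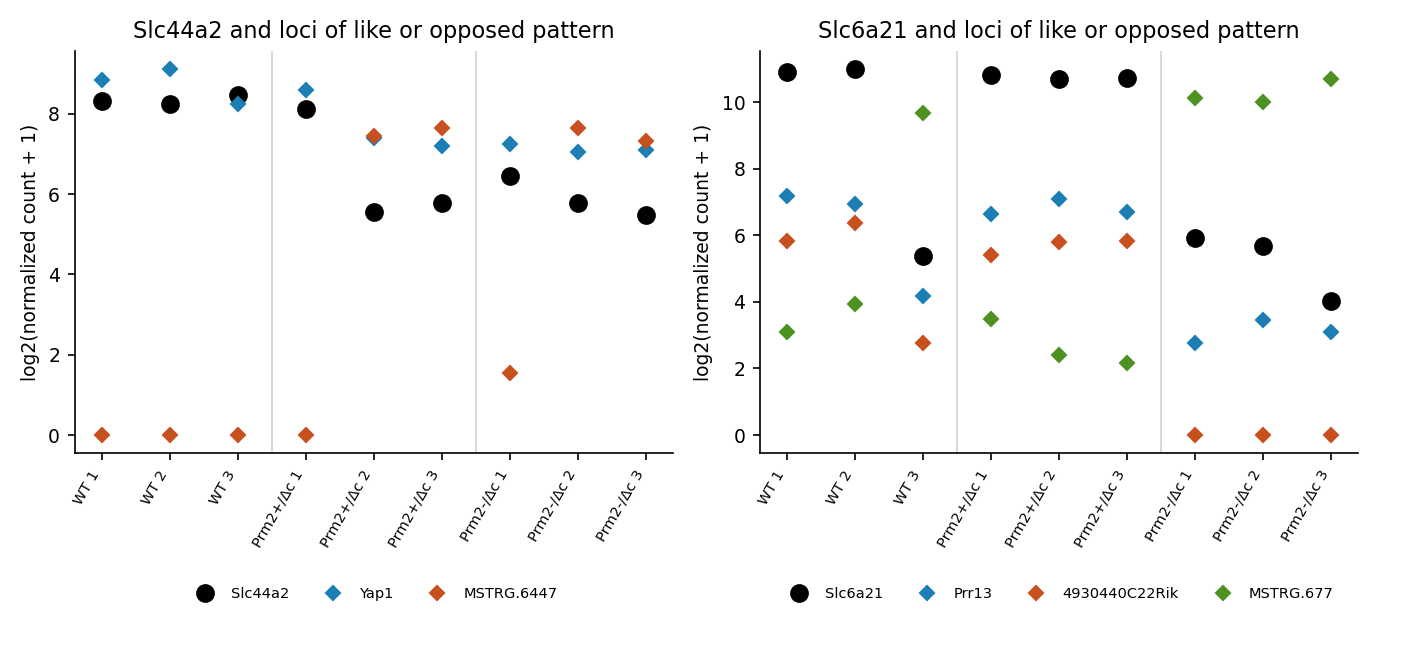
log2(normalized count + 1) in each of the 9 libraries for Slc44a2 with Yap1 (r = 0.93) and MSTRG.6447 (r = -0.94), and for Slc6a21 with Prr13 (r = 0.96), 4930440C22Rik (r = 0.94) and MSTRG.677 (r = -0.98). Each point is 1 mouse. WT replicate 3 sits below both other WT mice in Slc6a21, Prr13 and 4930440C22Rik and above them in MSTRG.677. The loci beside Slc44a2 and Slc6a21 were picked by r, so their likeness adds no support.

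No locus beside Slc44a2 or Slc6a21 was low in the same set of libraries as the gene itself. Loci are numbered by StringTie along the chromosomes, and the 3 on either side of each gene have no name here. Beside Slc44a2, the locus just before it had between 233 and 398 normalized counts in the 9 libraries and the second after it between 915 and 1531. The third after it was of low count, with 29.9, 0 and 40.2 normalized counts over the WT mice, 33.1 to 35.1 over Prm2+/Δc and 0, 11.5 and 10.9 over Prm2-/Δc mice. Its log2 fold changes were -1.63 in Prm2-/Δc against WT and -2.16 in Prm2-/Δc against Prm2+/Δc, and it was not low in Prm2+/Δc replicates 2 and 3, as Slc44a2 was. The second locus before it had 6.76 normalized counts in Prm2-/Δc replicate 1 and 869 to 2029 in the other 8. Summed over the 6 neighbours, of which 2 hold most counts, the mean was 2759 ± 145 for WT, 3002 ± 65.1 for Prm2+/Δc and 2647 ± 794 for Prm2-/Δc mice (SD, n = 3 each). Beside Slc6a21 the 6 neighbours summed to 532 ± 64.8 for WT, 500 ± 128 for Prm2+/Δc and 517 ± 148 for Prm2-/Δc mice. The second locus before Slc6a21 had 11.6 normalized counts in Prm2-/Δc replicate 1, nearly the same in Prm2+/Δc replicate 3, and 203 to 380 in the other 7 libraries, which is another split of the mice than that of Slc6a21.

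Of the nearest named loci, Yap1 stands before Slc44a2 as given above, and 9630041A04Rik after it, at 0 counts in all WT and Prm2-/Δc libraries and between 11.2 and 35.1 normalized counts in Prm2+/Δc. Before Slc6a21 stands Il4i1, which encodes an L-amino acid oxidase. Il4i1 had 2280, 1997 and 30.3 normalized counts over the WT mice, 1904, 33.5 and 32.4 in Prm2+/Δc, and 3.86, 37.8 and 5.43 in Prm2-/Δc. It was low in WT replicate 3 as Slc6a21 was, but also in Prm2+/Δc replicates 2 and 3, where Slc6a21 was high. Rpl18, a ribosomal protein gene and the nearest named locus after Slc6a21, had between 2264 and 4634 normalized counts in all 9 libraries.

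**Figure D5:**
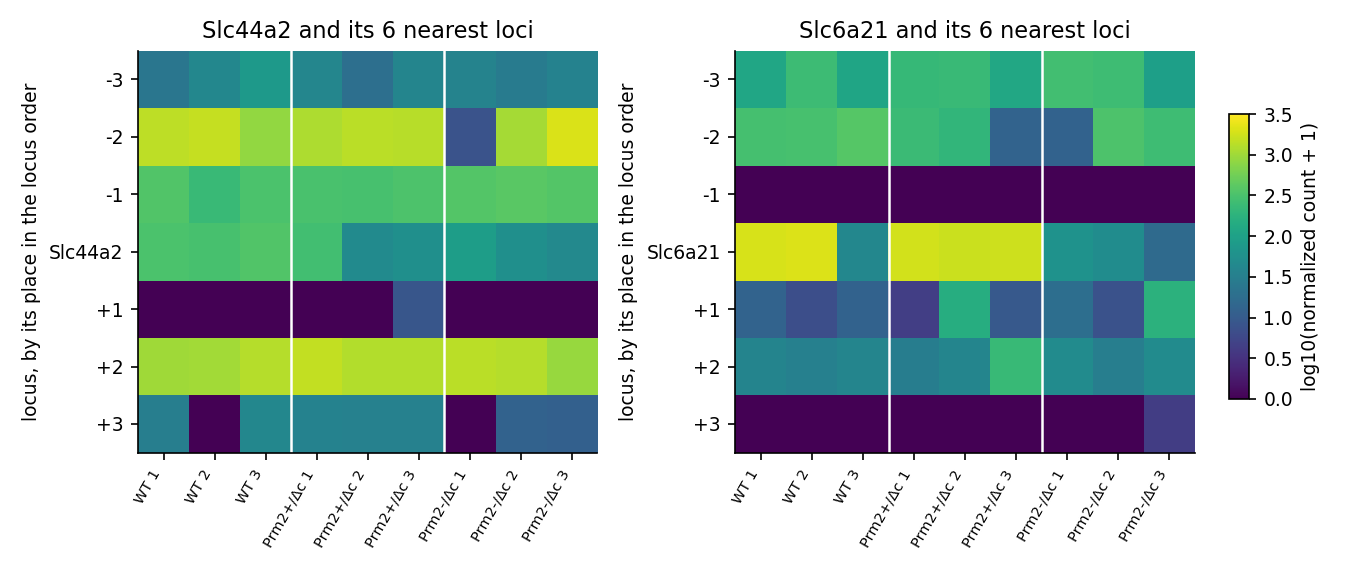
Heat maps of log10(normalized count + 1) for Slc44a2 and Slc6a21 and the 3 StringTie loci on either side of each, in the 9 libraries, with white lines between genotypes. The low libraries of the middle row are not low as a set in the rows above or below it.

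Few other genes of choline uptake and phosphatidylcholine synthesis could be read. Of a list of 19, 6 (31.6%) had a row with a name, and 3 of these were at 0 counts in all libraries. A share under 80% voids any statement on the list as a whole. Slc44a4 had 4 counts in all. Slc44a3, another choline transporter-like gene, had a normalized count of 4.34 ± 4.12 for WT, 13.5 ± 2.04 for Prm2+/Δc and 2.17 ± 3.76 for Prm2-/Δc mice (SD, n = 3 each). It did not pass edgeR's test in Prm2+/Δc against WT (log2 fold change 1.52, SE 0.898) or in Prm2-/Δc against Prm2+/Δc (-2.66, SE 1.27), with an adjusted p of 0.999 in each. Besides Slc44a2 it was the only listed gene tested, with an unadjusted p above 0.05 in edgeR and no call by DESeq2 in these comparisons.

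Of 21 genes of the SLC6 family, 16 (76.2%) had a named row and 5 of these were at 0 in all libraries. Besides Slc6a21, 5 were tested in Prm2-/Δc against WT, 5 in Prm2+/Δc against WT and 6 in Prm2-/Δc against Prm2+/Δc, and edgeR called 0, with 0 at an unadjusted p under 0.05. DESeq2 also called 0 of them. Over all loci the shares called by edgeR were 0.00567%, 0.073% and 0.0111% and those with an unadjusted p under 0.05 were 3.2%, 3.7% and 4.08%, so 0 of 5 or 6 is no result about these genes. Their rows held few counts. The highest library had 59 counts for Slc6a14, a transporter of neutral and cationic amino acids, 53 for Slc6a7, the brain proline transporter, and 45 for Slc6a11, a GABA transporter. The creatine transporter Slc6a8 had at most 35, Slc6a13, a GABA and taurine transporter, at most 31, and the serotonin transporter Slc6a4 at most 22. In Prm2-/Δc against Prm2+/Δc, where all 6 were tested, their log2 fold changes ran from -1.03 (Slc6a4, SE 1.08) to 1.14 (Slc6a13, SE 1.06). Slc6a8, Slc6a7, Slc6a11 and Slc6a14 had -0.67, 0.29, -0.76 and 0.30. These relatives have Ensembl rows, a kind of row that held 0.391% of all counts. Such rows may hold only part of each gene's reads, which was not tested.

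Among all 157 rows named Slc, 48 were tested in Prm2-/Δc against WT with 0 called, 54 in Prm2+/Δc against WT with 1 called lower and 60 in Prm2-/Δc against Prm2+/Δc with 1 called higher. Leaving out Slc44a2 and Slc6a21, edgeR tested 46 Slc rows in the first of these comparisons. Of these, 2 (Slc30a9 and Slc7a2, a cationic amino acid transporter) had an unadjusted p under 0.05. DESeq2 tested 85 Slc rows there and called 1 (Slc30a9). Over all loci an unadjusted p under 0.05 was found for 3.2%, and DESeq2 called 0.308%. In Prm2+/Δc against WT 3 of 52 (Slc39a7, Slc41a3 and Slc25a3) had such a p in edgeR, against 3.7% of all loci. DESeq2 called these and Slc4a11, 4 of 72 rows, against 0.408%. In Prm2-/Δc against Prm2+/Δc 2 of 58 (Slc41a3 and Slc25a3) had such a p in edgeR, against 4.08%. DESeq2 called Slc4a11 and Slc25a3, 2 of 76 rows, against 0.501%. Slc4a11 was not among the rows that edgeR tested in these comparisons. Of the 157 Slc rows, 6 are StringTie loci, named only through the study's differential expression data. Slc30a9, Slc39a7, Slc41a3 and Slc25a3 are among them. Of these, Slc39a7 was not listed as differing in either genotype. Slc4a11, an Ensembl row, was itself listed. The calls of these rows follow in part from how they came to be named or listed, so these shares are no result about Slc genes. The Slc row that edgeR called in both comparisons with Prm2+/Δc was Slc25a3, the phosphate carrier of the mitochondrial inner membrane. Its normalized counts ran from 1422 to 1628 over the WT mice, 94.5 to 124 over Prm2+/Δc and 1423 to 1788 over Prm2-/Δc mice. The edgeR log2 fold change was -3.80 (SE 0.153, adjusted p = 0.000923) in Prm2+/Δc against WT and 3.85 (SE 0.182, adjusted p = 0.0078) in Prm2-/Δc against Prm2+/Δc. Slc25a3 was thus low in Prm2+/Δc alone, the genotype in which Slc6a21 was high in all mice.

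The remaining solute carriers on the study's lists of genes with low RNA showed other splits of the same mice. Slc30a9, a zinc transporter listed as low in Prm2-/Δc, had 414, 396 and 401 normalized counts over the WT mice, 129, 430 and 113 over Prm2+/Δc and 135, 140 and 116 over Prm2-/Δc mice. As with Slc44a2, 1 Prm2+/Δc mouse was at the WT level, but it was replicate 2 and not replicate 1. Slc41a3, a mitochondrial magnesium transporter listed as low in Prm2+/Δc, had 4.49, 913 and 1026 over the WT mice, 12.4, 11.2 and 4.23 over Prm2+/Δc and 759, 9.04 and 5.43 over Prm2-/Δc mice. Its high libraries were WT replicates 2 and 3 and Prm2-/Δc replicate 1. Slc4a11, a member of the SLC4 family also listed as low in Prm2+/Δc, had between 7.48 and 22.9 normalized counts in the WT libraries, between 7.39 and 21.2 in Prm2-/Δc and 0 counts in all Prm2+/Δc libraries.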

How the data were processed

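Testis RNA of 9 mice was profiled with 3′ mRNA libraries (QuantSeq, 50 bp reads). The authors mapped the reads with HISAT2 2.1 to GRCm38, assembled loci with StringTie 1.3.3 and deposited estimated counts per locus, made by its preDE script from coverage, length and a read length that is not given in the sources used here. Counts of 3′ reads scaled this way are not compared between genes. All count columns were used. Names of 150 StringTie loci came from the study's differential expression data, and names of 24873 of 24982 Ensembl rows from the annotation. Ensembl rows held 0.391% of all counts, and the genes of most StringTie loci are not named here.

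Tests used edgeR 4.0.16 (glmQLFit and glmQLFTest, R 4.3.3, TMM, filterByExpr) on the groups compared, with Benjamini-Hochberg adjustment over all loci tested. Both genes passed the filter in all comparisons. The SE is the absolute log2 fold change over the root of F. Normalized counts used size factors of DESeq2 1.42.0 over 9 libraries. Exact permutation tests used scipy 1.17.1. The scripts were tested on simulated counts. Of 36 library pairs none agreed within sampling noise (lowest chi-square per locus 28.6). Named are both genes, the 5 named loci most like each, neighbouring loci, tested members of the choline and SLC6 lists, and Slc rows called or listed by the study. Members and lists were chosen with earlier results of these data known. The p-values set differences against the spread between mice and do not measure that spread.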

Additional observations from a re-analysis of the deposited data

Results flagged for a closer look

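Slc6a21 is listed here for its difference between Prm2-/Δc and Prm2+/Δc. These genotypes lay on opposite sides of the WT mean. All 3 Prm2+/Δc libraries were above that mean of 1337 normalized counts, and all 3 Prm2-/Δc libraries were below it. The mean lies between WT libraries of 40.2 and of 1932 and 2038, and the higher 2 were above all Prm2+/Δc libraries, so against those mice Prm2+/Δc was not higher. Whether the genotypes moved to opposite sides of WT was not tested. The direct comparison of Prm2-/Δc with Prm2+/Δc gave a log2 fold change of -5.37 (SE 0.50, edgeR adjusted p = 0.0711) with all 3 Prm2-/Δc mice lower, and did not pass the threshold.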

How the results depend on the processing

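Of 164 values recomputed under alternatives, 123 kept their direction and side of the threshold or stayed within the set limits, 35 moved, 4 passed a threshold they had missed and 2 reversed. For Slc44a2 and Slc6a21 in Prm2-/Δc against WT only the size of the fold change was judged, since that comparison chose them. There DESeq2, with which the study chose them, called both and edgeR neither, and these 2 crossings are not among the 4. DESeq2 called 69, 83 and 108 loci in Prm2-/Δc against WT, Prm2+/Δc against WT and Prm2-/Δc against Prm2+/Δc, where edgeR called 1, 13 and 2, and it called 3, 4 and 3 Slc rows where edgeR called 0, 1 and 1. One fit of all 9 libraries called 7, 5 and 4 loci. Without the filter 6 loci and 2 Slc rows were called in the last comparison. There Slc6a21 passed the threshold with DESeq2 (-5.36, adjusted p = 5.51e-32) and without the filter (-5.37, adjusted p = 0.0477). Both values use the Prm2-/Δc libraries by which the gene was chosen as low, so they are no independent support. The cause of the differences between methods was not tested.

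The labels state no pairing of the mice by replicate number. Same-numbered libraries of different genotypes correlated between -0.22 and 0.07 in their deviations from the group means, which cannot exclude a pairing. With the replicate number as a block, edgeR called 0, 3 and 0 loci, and 0 Slc rows in Prm2-/Δc against Prm2+/Δc. The block gave Slc44a2 -2.44, -1.90 and -0.59 and Slc6a21 -4.16, 1.16 and -5.52 in the 3 comparisons, with no change of direction.

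With 1 library left out, the log2 fold change of Slc44a2 ranged from -2.72 to -2.20 in Prm2-/Δc against WT, from -2.70 to -0.99 in Prm2+/Δc against WT and from -1.42 to 0.29 in Prm2-/Δc against Prm2+/Δc. That of Slc6a21 ranged from -5.58 to -4.56, from -0.22 to 0.79 and from -5.69 to -4.98. Both reversals came from 1 library each, Prm2+/Δc replicate 1 for Slc44a2 (0.29) and WT replicate 3 for Slc6a21 (-0.22). The loci called ranged from 0 to 20, from 12 to 37 and from 0 to 70, and the Slc rows from 0 to 0, from 1 to 2 and from 0 to 2. The highest counts came without Prm2-/Δc replicate 3 (20 and 70 loci) and without WT replicate 3 (37 loci), and 0 loci in the last comparison came without Prm2+/Δc replicate 3. With 3 mice a group the exact permutation tests cannot pass 0.05.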
